A study of Homo sapiens with 8 samples.

Results

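ATF4 and 9 further regulators of the integrated stress response were followed across 4 conditions of Hep3B cells, an established human hepatocellular carcinoma line. ATF4 is the central transcription factor of the response, and the 9 others are known to be induced with it: DDIT3, ATF3, ATF5, CEBPB, TRIB3, CHAC1, SESN2, DDIT4 and NUPR1. The members were taken by gene symbol, with all transcripts of a symbol summed, and 10 of 10 were found among the 16038 gene names of the knockout table and the 14953 of the siRNA table. RNA-seq had been done on 2 libraries per condition. The first table held Hep3B cells of wild-type genotype and Hep3B cells labelled as SOX4 knockout, and the second table held Hep3B cells given a scramble siRNA and Hep3B cells given a STAT6 siRNA. SOX4 and STAT6 are transcription factors, and the study asked which genes depend on either one. The knockout cells are described as SOX4-/- Hep3B lines made with CRISPR/Cas9 (#1 and #2) and kept in puromycin, and the labels do not say whether the libraries numbered 1 and 2 are those lines. The labels give no separate cultures for the libraries of a condition, so the p-values measure only the spread between these libraries, which may be technical.

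In the integrated stress response, kinases that sense amino acid shortage, misfolded protein in the endoplasmic reticulum, heme shortage or double-stranded RNA phosphorylate the initiation factor eIF2alpha. General translation falls, while the ATF4 mRNA is translated more through its upstream open reading frames, so the amount of ATF4 protein is only partly set by the amount of its mRNA. ATF4 pairs with C/EBP-family and other bZIP proteins on C/EBP-ATF composite elements and raises genes for amino acid supply, redox balance and, if stress lasts, cell death.

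Before the levels, the bases upstream of the annotated starts were searched for the core of that composite element, TGATGNAA on either strand. RefSeq promoter entries (GRCh38.p14) matched 9 of the 10 members with 17 start sites, and the 250 bases upstream of each start were read. The core was found upstream of CHAC1 and of 1 start of ATF3, and in 3.14% of all 35116 RefSeq promoters. Those 30-base stretches are shown because CHAC1 and ATF3 were among the members that changed, with the 8 matching bases in capitals, 5′ to 3′ on the plus strand, which is the coding strand of both genes.
CHAC1 (chr15:40953251-40953280): ctcccctgccgTTGCATCActcctgccagg
ATF3 (chr1:212565205-212565234): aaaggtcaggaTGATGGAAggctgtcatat
The CHAC1 match is the reverse complement of the searched core and lies 209 to 202 bases before the RefSeq start, inside a longer first exon that GENCODE annotates for CHAC1. The ATF3 match lies 191 to 184 bases before a RefSeq start close to that of the transcript NM_001030287, which took 0.329% to 1.48% of the ATF3 counts over the 8 libraries, whereas NM_001674, from a start further downstream (chr1:212608628), took 91.4% to 98.3%. A match to these letters is a description of the window only. The start of NM_001674 was not among those searched, nor were NUPR1 and the upstream TRIB3 start (NM_021158, 52.9% to 87.1% of the TRIB3 counts). Of the other words searched, the cyclic AMP response element TGACGTCA had 0 matches in the 17 windows and stood in 1.65% of all promoters. The SOX core ACAAAG stood in 2 of the 17 windows, of ATF3 and ATF5, and in 13.7% of all promoters. These lie before the ATF3 start named above and an ATF5 start close to that of NM_001290746 (0.0609% to 0.586% of the ATF5 counts). The STAT6 motif, TTC and GAA with 4 bases between them, had 0 matches in the same windows and stood in 5.38%. The AP-1 element TGANTCA stood upstream of DDIT3 and ATF5 and in 6.57% of all promoters.

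The members are spread over 8 chromosomes (hg38, starts and stops as deposited). ATF4 lies at chr22:39520559-39522686, DDIT3 at chr12:57516588-57520517, ATF3 at chr1:212565334-212620777, ATF5 at chr19:49928702-49933936 and CEBPB at chr20:50190583-50192691. TRIB3 lies at chr20:380629-397559, CHAC1 at chr15:40953438-40956519, SESN2 at chr1:28259452-28282491, DDIT4 at chr10:72273919-72276039 and NUPR1 at chr16:28537341-28539174. DDIT3 and NUPR1 are on the minus strand and the other 8 on the plus strand.

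The series as a whole set the following frame. Library totals ranged from 16266282 to 25353113 expected counts (estimated read counts per transcript). STAT6 was lower in both STAT6 siRNA libraries (9.92 and 5.98 CPM, counts scaled to a common library size) than in both scramble libraries (42.5 and 31.4 CPM), with a log2 fold change of -2.22 and an adjusted p of 1 in edgeR's quasi-likelihood test. SOX4 mRNA was at 799 and 266 CPM in Hep3B and at 298 and 302 CPM in the libraries labelled SOX4 knockout (log2 fold change -0.83, adjusted p = 0.372 in the same test), so this transcript does not check the knockout label, and the groups are named here by their labels. STAT6 was at 32.0 and 13.2 CPM in Hep3B and at 2.76 and 2.20 CPM in the knockout libraries. Its log2 fold change there was -3.18, with an adjusted p of 0.0275 in edgeR's quasi-likelihood test. Of the 12 hepatocyte markers, 12 of 12 were at 1 CPM or more in every library. Of 15 fibroblast, endothelial and leukocyte markers, 6 were at 0 in all 8 libraries (COL3A1, DCN, CDH5, VWF, KDR and CD3E). Their summed level was 40.5 to 87.3 CPM in Hep3B, 255 to 467 CPM in the knockout libraries and 77.0 to 138 CPM in the siRNA libraries, mostly from CD68, LYZ and, in the knockout libraries, LUM.

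Per base of transcript, ATF4 was the most abundant of the 10 members in Hep3B. Levels per length are given as CPM per kilobase of transcript, where the library sizes carry TMM factors, TMM being a scaling between libraries from the bulk of the genes. On this scale ATF4 averaged 936 in Hep3B, followed by NUPR1 at 727, TRIB3 at 524 and DDIT4 at 242. DDIT3, CHAC1 and ATF3 followed at 134, 125 and 122, and the ranges of their 2 libraries overlapped. SESN2 averaged 101, CEBPB 69.4 and ATF5 37.1, the lowest of the 10. In the knockout libraries NUPR1 was first at 516, then ATF4 at 318 and TRIB3 at 139, and the remaining 7 members lay between 16.5 and 29.9. In the siRNA libraries NUPR1 was again first, at 1353 with scramble and 1491 with STAT6 siRNA, ahead of ATF4 at 896 and 795. DDIT3 was the lowest of the 10 with both siRNAs, at 25.1 and 23.1.

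**Figure D1:**
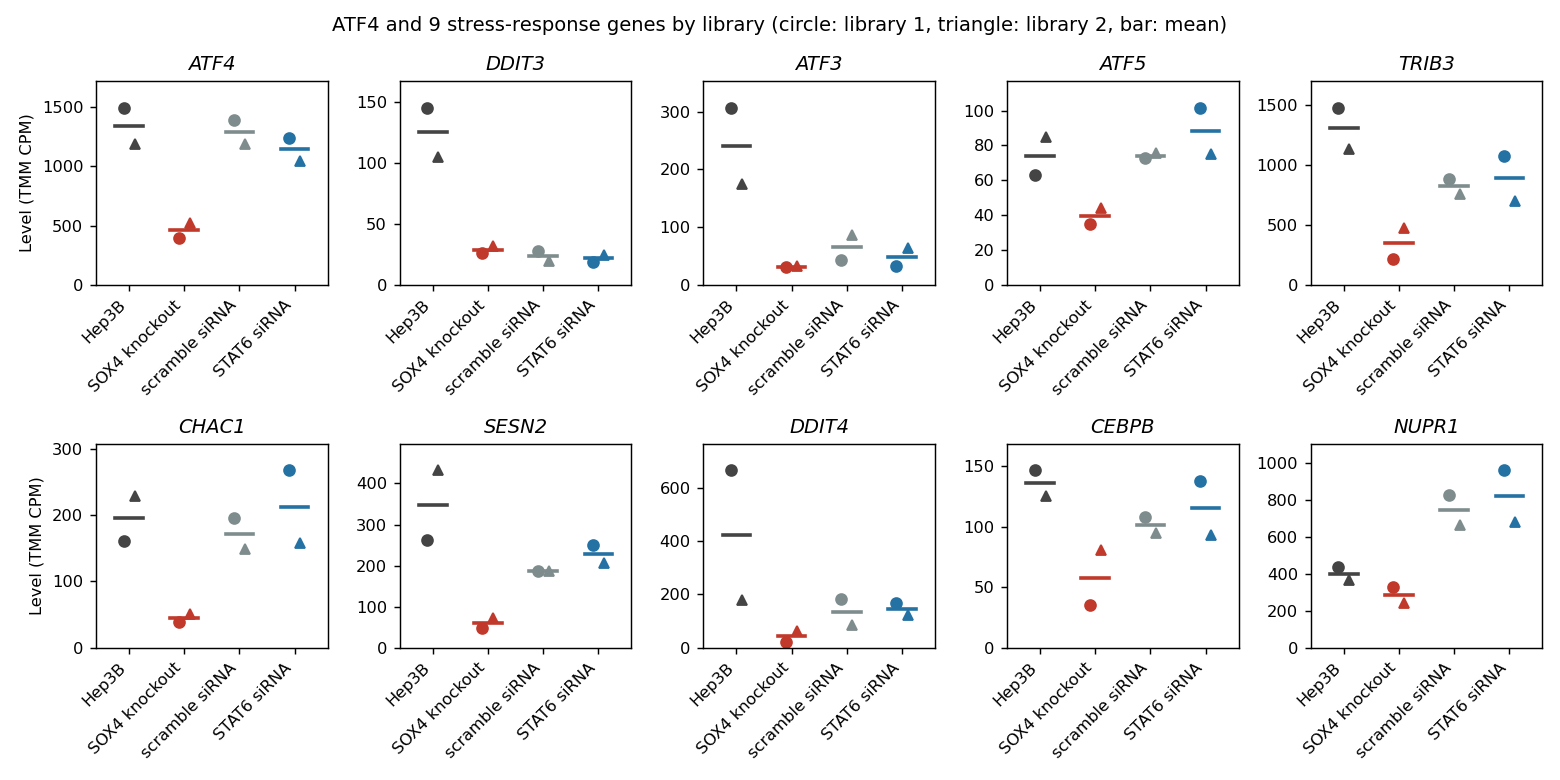
Levels of the 10 members in the 8 libraries, in CPM on 1 TMM scale over all 8 (each vertical axis starts at 0; the circle is library 1, the triangle library 2 and the bar their mean). The libraries labelled SOX4 knockout were the lowest pair for 9 of 10 members, and DDIT3 was as low with either siRNA as in them. The share of all genes with that order was not taken.

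The first comparison asked what the members did in the cells labelled SOX4 knockout. Of the 9 targets 5 were lower than in Hep3B at an adjusted p below 0.05, namely DDIT3, ATF3, CHAC1, SESN2 and DDIT4, by 4.13-fold to 9.80-fold. ATF4 itself was 2.81-fold lower and did not pass that threshold. In bulk RNA, fewer cells expressing a gene and less RNA per cell cannot be told apart. In all, 5 of 10 members were called, every one of them lower, where 5.89% of 14415 genes were called in either direction and 1.39% were called lower. For 10 of 10 members both knockout libraries lay below both Hep3B libraries, which held for 27.4% of all genes. The median log2 fold change of the 10 was -1.95, beside 0.01 over all genes. The values below are CPM on the TMM scale of the knockout table, with means ± SD over 2 libraries, and each adjusted p is from edgeR's quasi-likelihood test, adjusted by the Benjamini-Hochberg method over 14415 genes.

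ATF4 was at 1639 and 1264 CPM in the Hep3B libraries and at 456 and 577 CPM in the knockout libraries. Both knockout values were under the lower Hep3B value, with a mean of 517 ± 85.5 against 1452 ± 265 CPM. The log2 fold change was -1.49 (SE 0.45, 95% interval -2.52 to -0.46), with an unadjusted p of 0.0106 and an adjusted p of 0.0895 in edgeR's quasi-likelihood test. On the log2 scale 5.08% of the genes tested had a lower fold change than ATF4.

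The members DDIT3, ATF3, ATF5 and CEBPB are bZIP transcription factors that act beside or after ATF4. DDIT3 encodes CHOP, which is raised under lasting stress and promotes cell death. It was at 159.6 and 112 CPM in Hep3B and at 29.6 and 35.1 CPM in the knockout libraries, with no overlap. The log2 fold change was -2.07 (SE 0.37), with an adjusted p of 0.0267 in edgeR's quasi-likelihood test. ATF3, an early factor that restrains the response and is also raised by many other stresses, was at 336 and 185 CPM in Hep3B and at 35.3 and 35.5 CPM in the knockout libraries. The Hep3B pair differed between themselves by more than the knockout pair did, and the groups did not overlap. Its log2 fold change was -2.88 (SE 0.42), with an adjusted p of 0.0186 in edgeR's quasi-likelihood test, the smallest of the 10. The other two factors had smaller differences. ATF5, which like ATF4 is controlled in translation and is known for the mitochondrial branch of the response, was at 68.9 and 90.1 CPM against 40.0 and 49.3 CPM. CEBPB, a dimerization partner of ATF4 and an acute-phase regulator in liver, was at 160.5 and 133 CPM against 40.1 and 89.6 CPM. For both genes the pairs were apart and the test did not pass, with log2 fold changes of -0.83 (SE 0.35, adjusted p = 0.185) and -1.18 (SE 0.44, adjusted p = 0.146) in edgeR's quasi-likelihood test.

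The 5 other targets encode regulators and enzymes. CHAC1, which degrades glutathione, was at 177 and 245 CPM in Hep3B and at 44.9 and 57.2 CPM in the knockout libraries. SESN2, a leucine sensor that restrains mTORC1, was at 289 and 460.4 CPM against 55.7 and 80.6 CPM. In both genes the lower Hep3B library still stood well above the higher knockout library. The log2 fold changes were -2.05 for CHAC1 (SE 0.37, adjusted p = 0.0276) and -2.46 for SESN2 (SE 0.43, adjusted p = 0.0255) in edgeR's quasi-likelihood test. DDIT4 encodes REDD1, another inhibitor of mTORC1 signalling, and is also induced by hypoxia and glucocorticoids. It was at 731 and 189 CPM in Hep3B and at 24.7 and 69.2 CPM in the knockout libraries, so that library 1 of each pair was far from library 2. Its log2 fold change of -3.29 was the largest fall and also had the largest SE of the 10, 0.76, with an adjusted p of 0.0490 in edgeR's quasi-likelihood test. The hypoxia-induced genes VEGFA and NDRG1 differed between the Hep3B libraries in the same direction, at 1211 and 213 CPM and at 821 and 34.3 CPM. Their part in the DDIT4 result was not tested. On leaving out Hep3B library 1, DDIT4 had a log2 fold change of -2.07 instead of -3.29, with an adjusted p of 0.0238 in edgeR's quasi-likelihood test. DDIT4 was not called with at least 10 counts in every library (adjusted p = 0.0526), with robust = TRUE (adjusted p = 0.0673) or with the library number as a block (adjusted p = 0.0540) in this test.

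TRIB3, a pseudokinase that binds ATF4 and CHOP and limits their activity, was at 1622 and 1213 CPM in Hep3B and at 249 and 532 CPM in the knockout libraries. The pairs were apart, and the knockout libraries differed from each other by more than the ATF4 values did. Its log2 fold change was -1.86 (SE 0.52), with an adjusted p of 0.0783 in edgeR's quasi-likelihood test. NUPR1, a small stress-induced chromatin protein, was the member that differed least. It was at 478 and 388 CPM against 375 and 266 CPM, with a log2 fold change of -0.43 (SE 0.39, 95% interval -1.34 to 0.48) and an adjusted p of 0.520 in edgeR's quasi-likelihood test. At an unadjusted p below 0.05 stood 9 of the 10 members, all but NUPR1, beside 26.0% of all genes.

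These calls rested on both knockout libraries. Without knockout library 1, 0 of 10 members and 73 genes in all were called, and without knockout library 2, 0 of 10 members and 21 genes, since the spread then came from the Hep3B pair alone. In both fits all 10 log2 fold changes stayed below 0, and for ATF4 the values over the 4 fits that leave out 1 library ran from -1.70 to -1.32. For DDIT4 they ran from -4.23 to -2.07. Without Hep3B library 1 the same 5 members were called, and without Hep3B library 2 TRIB3 was called with them. DESeq2's Wald test called 7, the same 5 with ATF4 (adjusted p = 0.00267) and TRIB3 (adjusted p = 0.00237). It called 2160 of 14415 genes in all, 780 of them lower.

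**Figure D2:**
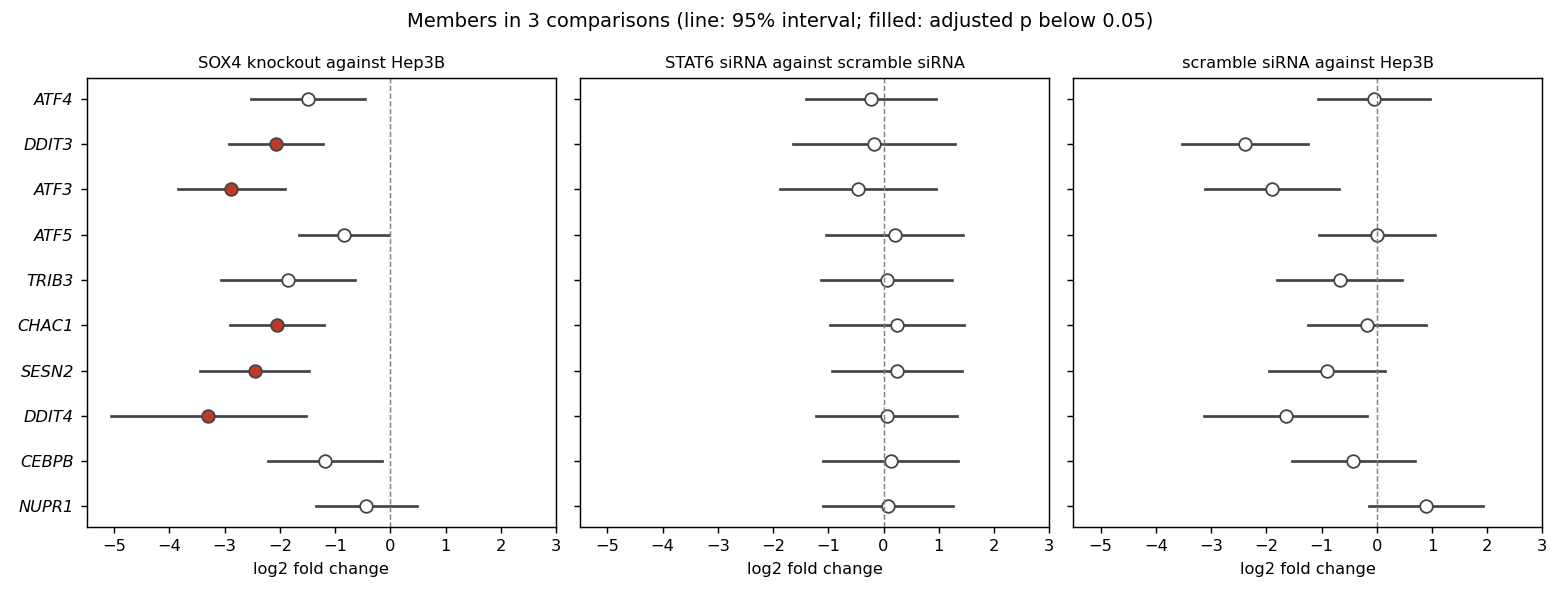
Log2 fold changes of the 10 members with 95% intervals in 3 comparisons (filled points have an adjusted p below 0.05 in edgeR's quasi-likelihood test). In the knockout comparison 10 of 10 points lie below 0 and 5 are filled, with STAT6 siRNA all 10 intervals span 0, and in the scramble comparison DDIT3 is at -2.38 and ATF4 at -0.06.

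The second comparison asked the same of STAT6 knockdown. With STAT6 siRNA 0 of 10 members were called against scramble siRNA, and 0% of 13554 genes were. At an unadjusted p below 0.05 stood 0 members and 14 genes, and DESeq2 called 0 genes (16 at an unadjusted p below 0.05). STAT6 itself was not called (log2 fold change -2.22), so 0 calls do not show that the members were unchanged. Libraries of the same number deviated together in this table (r = 0.93). With the library number as a block, 0 members and 62 genes were called. With offsets for GC content and length added to the block, 1 member (ATF3) and 352 genes were. ATF4 was at 1277 and 1101 CPM in the scramble libraries and at 1066 and 965 CPM in the STAT6 siRNA libraries, on the TMM scale of the siRNA table. It was the 1 member with both STAT6 siRNA libraries below both scramble libraries, which held for 5.26% of all genes. Its log2 fold change was -0.23 (95% interval -1.40 to 0.95), beside -1.49 in the knockout comparison. SESN2 was the 1 member with both STAT6 siRNA libraries above both scramble libraries, at 216 and 189.8 CPM against 171 and 173 CPM, with a log2 fold change of 0.24 (95% interval -0.94 to 1.41). The share of all genes above in this way was not taken. The pairs of the other 8 members overlapped. Their log2 fold changes ran from -0.46 for ATF3, at 39.6 and 79.8 CPM with scramble and 28.4 and 58.2 CPM with STAT6 siRNA, to 0.25 for CHAC1, at 179.7 and 138 CPM against 231 and 146 CPM. Taken between libraries of the same number, the log2 difference had 1 sign in both pairs for 5 members. It was below 0 for ATF4 (-0.26 and -0.19) and ATF3 (-0.48 and -0.45), and above 0 for CHAC1 (0.36 and 0.08), SESN2 (0.34 and 0.14) and NUPR1 (0.12 and 0.03). How often 1 sign in both pairs held over all genes was not counted, so these signs are a description only. In ATF3 the libraries numbered 2 were above those numbered 1 in both conditions. In ATF4, TRIB3, CHAC1, DDIT4, CEBPB and NUPR1 the libraries numbered 1 were the higher ones in both.

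A contrast in 1 fit of all 8 libraries asked whether the members' response differed between SOX4 knockout and STAT6 siRNA. The knockout effect minus the siRNA effect was below 0 for 10 of 10 members, with a median of -2.01 on the log2 scale beside -0.09 over all genes. None of the 10 was called, and 0.0769% of 14313 genes were (11 genes). The lowest adjusted p was 0.180 for SESN2, whose difference was -2.81 (SE 0.71, 95% interval -4.32 to -1.30) in edgeR's quasi-likelihood test. DDIT4 had a difference of -3.45 (SE 0.98, adjusted p = 0.267) and CHAC1 one of -2.41 (SE 0.71, adjusted p = 0.298). ATF4 had a difference of -1.37 (SE 0.67, 95% interval -2.82 to 0.07, adjusted p = 0.800). At an unadjusted p below 0.05 stood 6 of 10 members, beside 6.56% of all genes. DESeq2 called SESN2 and DDIT4, among 167 of 14313 genes in all.

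Between the control conditions the ATF4 levels overlapped, while several targets were lower with scramble siRNA in both libraries. Scramble siRNA libraries were set against untransfected Hep3B libraries in the fit of all 8, where transfection, the table and any difference in handling cannot be told apart. The Hep3B libraries are those of the knockout comparison too. On the TMM scale of all 8 libraries ATF4 was at 1496 and 1186 CPM in Hep3B and at 1391 and 1189 CPM with scramble siRNA, and the pairs overlapped. DDIT3 was at 146 and 105 CPM in Hep3B and at 28.1 and 20.0 CPM with scramble siRNA, as low as the 25.9 and 31.6 CPM of the knockout libraries. ATF3 was at 307 and 174 CPM against 43.1 and 86.2 CPM, and SESN2 at 263 and 432 CPM against 186 and 187 CPM. For both the pairs were apart. TRIB3 and CEBPB were also apart and lower, so that 5 of 10 members had both scramble libraries below both Hep3B libraries, beside 28.9% of all genes. NUPR1 went the other way, with 436 and 364 CPM in Hep3B and 825 and 664 CPM with scramble siRNA. None of the 10 was called, beside 0.00699% of 14313 genes (1 gene). At an unadjusted p below 0.05 stood 3 of 10 members, beside 19.6% of all genes. The log2 fold changes were -2.38 for DDIT3 (SE 0.53, adjusted p = 0.169), -1.89 for ATF3 (SE 0.57, adjusted p = 0.181) and -1.65 for DDIT4 (SE 0.69, adjusted p = 0.224) in edgeR's quasi-likelihood test. That of ATF4 was -0.06 (95% interval -1.07 to 0.96) and that of NUPR1 0.90 (95% interval -0.14 to 1.93). DESeq2 called DDIT3 and ATF3, among 725 of 14313 genes in all.

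Taken as a share of the mean Hep3B level, ATF4 stood at 29.8% and 38.7% in the knockout libraries, at 104% and 88.7% with scramble siRNA and at 92.4% and 78.1% with STAT6 siRNA. The median of the 9 targets stood at 20.1% and 26.3% in the knockout libraries, at 67.7% and 57.9% with scramble siRNA and at 82.4% and 59.2% with STAT6 siRNA. In each of the 6 libraries outside Hep3B the median target was below ATF4 on this scale. The targets spread widely around that median. In the first scramble library they ran from 17.9% for ATF3 to 206% for NUPR1, and in the first knockout library from 5.12% for DDIT4 to 82.0% for NUPR1. Over the 4 conditions the mean level was lowest in the knockout libraries for 9 of 10 members, and for all 9 of these both knockout libraries lay below the next condition. The exception was DDIT3, whose 3 lower conditions overlapped. The share of all genes with such an order was not taken, so these counts are a description only. Hep3B had the highest mean for 7 members and STAT6 siRNA for 3, ATF5, CHAC1 and NUPR1. For ATF4 the ranges of Hep3B and scramble siRNA overlapped, as did those of scramble and STAT6 siRNA.

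In TRIB3 the shares of the transcripts differed between conditions. The deposited table splits it into NM_021158, which starts at chr20:380629, and 5 transcripts that start downstream, between 381295 and 381343 on chromosome 20 (hg38, plus strand). The 60 bases just before the first of the downstream starts are shown, and they lie in an intron of TRIB3 in the GENCODE annotation. No difference was measured over these bases themselves.
TRIB3 (chr20:381235-381294): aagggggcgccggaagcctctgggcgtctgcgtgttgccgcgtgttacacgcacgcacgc
Downstream-start transcripts took 41.0% and 47.1% of the TRIB3 expected counts in Hep3B and 20.7% and 23.9% in the knockout libraries. With scramble siRNA their share was 22.1% and 12.9%, and with STAT6 siRNA 18.4% and 15.4%. Both Hep3B libraries were above the other 6. In CPM on the scale of all 8 libraries the downstream group averaged 571 ± 50.2 in Hep3B, 79.7 ± 49.2 in the knockout libraries, 147 ± 69.7 with scramble siRNA and 153 ± 63.5 with STAT6 siRNA. The upstream transcript averaged 738 ± 192 in Hep3B, 268 ± 136 in the knockout libraries, 676 ± 21.5 with scramble siRNA and 738 ± 202 with STAT6 siRNA. With both siRNAs the lower TRIB3 level lay mainly in the downstream group, and in the knockout libraries both groups were lower than in Hep3B. The split between transcripts is an estimate by the authors' software that rests on the few reads over the differing first exons, and no test was made of it.

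The shares of the DDIT3 transcripts differed as well. NM_004083 took 68.3% and 72.6% of the DDIT3 counts in Hep3B and 45.6% and 67.6% in the knockout libraries. Its share was 61.9% and 55.97% with scramble siRNA and 44.9% and 63.8% with STAT6 siRNA. NM_001195056 took more in the knockout and scramble libraries than in Hep3B, while its STAT6 siRNA pair overlapped the Hep3B pair. The DDIT3 transcripts share 1 span, and no test was made of this split. CHAC1, SESN2 and DDIT4 have 1 transcript each in the tables. In ATF4 the transcript NM_182810 took 92.2% to 97.1% of the counts in every library. The 3 CEBPB transcripts share 1 span and received 33.3% each, so the estimate does not separate them. DDIT3 overlaps MARS by 982 bases and DDIT4 overlaps DDIT4-AS1 by 1066 bases, both on the opposite strand. ATF5 overlaps NUP62, IL4I1 and, by 5235 bases, AC011452.1 on the opposite strand, and CEBPB overlaps CEBPB-AS1. The library kit keeps strand, but whether counting used it is not given in the sources used here. Reads of such opposite-strand pairs may therefore not be told apart. DDIT3 also overlaps AC022506.1 by 2769 bases on the same strand, where strand could not separate the reads.

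Around the members, genes of the pathway were counted by list in the cells labelled knockout, where 5.89% of all genes were called in either direction and 1.39% were called lower. The lists were not tested against each other. Of the 4 eIF2alpha kinases 0 were called. The largest differences among them were in opposite directions, -0.98 for EIF2AK3 (PERK, which senses misfolded protein in the endoplasmic reticulum; adjusted p = 0.129) and 0.91 for EIF2AK4 (GCN2, which senses uncharged tRNA; adjusted p = 0.197) on the log2 scale in edgeR's quasi-likelihood test. EIF2AK1, the heme-regulated kinase and the most abundant of the 4 by count, had a log2 fold change of -0.002. Of 14 tested subunits of eIF2 and eIF2B and their regulators 2 were called (14.3%), both lower, and both oppose the signal: PPP1R15A (GADD34), which recruits the phosphatase that reverses eIF2alpha phosphorylation, and DNAJC3 (P58IPK), an inhibitor of the kinases. PPP1R15A was at 777 and 622 CPM in Hep3B and at 86.8 and 152 CPM in the knockout libraries, a log2 fold change of -2.55 (SE 0.45, adjusted p = 0.0269 in edgeR's quasi-likelihood test). DNAJC3 was at 386 and 302 CPM against 124 and 103 CPM, a log2 fold change of -1.60 (SE 0.37, adjusted p = 0.0478 in the same test). PPP1R15A is itself an ATF4 target and DNAJC3 one of ATF6 and XBP1, and each stands in 2 of the lists described here. Not every gene of the list that opposes the signal was lower. PPP1R15B had a log2 fold change of -0.17 (adjusted p = 0.807) and IMPACT one of 0.18 (adjusted p = 0.845) in edgeR's quasi-likelihood test.

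Among 21 tested amino acid and one-carbon targets of ATF4, 8 were called (38.1%), all lower, and 20 of 21 were below 0, with a median log2 fold change of -1.69. SLC3A2, the heavy chain of the large neutral amino acid and cystine transporters, was at 1067 and 1548 CPM in Hep3B and at 145 and 166 CPM in the knockout libraries. ASNS, asparagine synthetase, was at 371 and 257 CPM against 50.2 and 57.1 CPM. For SLC7A11, the cystine transporter, the levels were 166 and 265 CPM against 24.2 and 37.4 CPM, and for PHGDH, which opens serine synthesis, 382 and 338 CPM against 78.8 and 76.8 CPM. All 4 pairs were apart, with log2 fold changes of -3.07, -2.55, -2.81 and -2.21. Of 18 secreted and other stress targets 4 were called (22.2%), all lower, and 17 were below 0, with a median of -1.35. They were STC2, a secreted glycoprotein (log2 fold change -3.13), TNFRSF10B, the death receptor DR5 (-2.37), PPP1R15A and XPOT, the tRNA exporter (-1.72). In the ATF6 and XBP1 arms of the unfolded protein response, which run beside the ATF4 arm, 2 of 20 genes were called (10.0%), HERPUD1 (-2.45) and DNAJC3, and 19 were below 0, with a median of -1.08. DESeq2, which called 2160 of 14415 genes in all, called 15 of the amino acid and one-carbon targets. It called 7 of the secreted targets and 9 genes of the ATF6 and XBP1 arms. With the library number as a block and offsets for GC content and length, 0 of all 3 lists were called.

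No gene passed among the 22 other bZIP factors (17 below 0, median -0.27), the 5 tested paralogs of the members (1 below 0, median 0.52), the 9 mitochondrial chaperones and proteases (9 below 0, median -0.87), the 12 hypoxia genes (10 below 0, median -1.29) or the 10 immediate early genes (5 below 0, median -0.11). The most abundant of these were NFE2L1 and JUND, TRIB1 and SESN1, HSPD1 and HSPA9, VEGFA and NDRG1, and IER3 and JUN, with log2 fold changes between -1.28 for HSPA9 and 1.12 for TRIB1. TRIB1 and SESN1, paralogs of TRIB3 and SESN2, had log2 fold changes of 1.12 (adjusted p = 0.133) and -0.07 (adjusted p = 0.939) in edgeR's quasi-likelihood test. Most hepatocyte markers went the opposite way from the members, with 11 of 12 above 0 and a median of 1.53. Of the 12, 4 were called, all higher (TTR, APOH, FGB and APOA1), and AFP was below 0 (log2 fold change -0.76). Of the 7 tested markers of other cell types 2 were called, LUM and PDGFRB, both higher. The part of either marker group in the members' result was not tested. As for the members, 0 genes of the stress lists were called without knockout library 1 or without knockout library 2, while 20 to 21 of the amino acid and one-carbon targets were below 0 on leaving out any 1 library. Directions in the bZIP, immediate early and hypoxia lists turned with the choice of Hep3B library. Without Hep3B library 1, 9 of 22 bZIP factors, 2 of 10 immediate early genes and 2 of 12 hypoxia genes were below 0. Without Hep3B library 2, 18 of 22, 8 of 10 and 11 of 12 were. Of the 9 mitochondrial genes, 9 and 7 were below 0 in these fits. DESeq2, on all 4 libraries, called 3 mitochondrial genes, 2 bZIP factors, 1 hypoxia and 1 immediate early gene, among 2160 of 14415 genes in all.

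With STAT6 siRNA 0 genes of any list were called, and the medians lay between -0.22 for the secreted targets and 0.30 for the hepatocyte markers, apart from 0.53 for the 5 tested markers of other cell types. In scramble siRNA against Hep3B 0 genes of any list were called either, and 19.6% of all genes stood at an unadjusted p below 0.05. The medians there differed between the lists of ATF4 targets. The amino acid and one-carbon targets had a median of -0.05 (11 of 21 below 0, 1 at an unadjusted p below 0.05) and the secreted and other stress targets one of -1.23 (13 of 17 below 0, 8 at an unadjusted p below 0.05). The ATF6 and XBP1 arms had a median of -1.62 (19 of 20 below 0), the 5 tested paralogs -1.15, the eIF2alpha kinases -0.57, the bZIP factors -0.56 and the hepatocyte markers 1.23. For the hypoxia genes it was -2.44 with 12 of 12 below 0, but without Hep3B library 1 only 6 of 12 were below 0. Without scramble library 2, 18 of 20 genes of the ATF6 and XBP1 arms and 12 of 12 hypoxia genes were below 0. On all 8 libraries DESeq2 called 8 and 4 genes of these lists, among 725 of 14313 genes in all.

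Genes whose pattern was most like that of the members were found by Pearson correlation of log2 CPM over the 8 libraries, over the 10977 genes averaging 100 counts or more. Most like ATF4 were ISL2 (r = 0.99), JOSD1 (r = 0.98), GPT2 (r = 0.98), IST1 (r = 0.98) and CCNB1IP1 (r = 0.98). Most like the mean of the other 9 members were MAX (r = 0.98), AKNA (r = 0.98), NSUN4 (r = 0.98), ISL2 (r = 0.98) and CNNM4 (r = 0.97). ISL2 was at 47.9 and 36.3 CPM in Hep3B, 5.998 and 8.804 CPM in the knockout libraries, 31.0 and 33.8 CPM with scramble siRNA and 33.1 and 26.0 CPM with STAT6 siRNA. Of the members, CHAC1 followed ATF4 most closely (r = 0.94) and DDIT3 least (r = 0.31). The 2 knockout libraries stand apart and set much of these values, which share libraries and depth and are a description only.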

How the data were processed

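RNA-seq libraries of Hep3B cells (Illumina stranded mRNA kit) were grouped by their labels, 2 per condition, with 0 table columns unassigned. The values the authors deposited are expected counts per RefSeq transcript, estimated from the reads and not normalized, with separate tables for the knockout and siRNA experiments. The submitters' processing notes name STAR, Partek and hg38, and whether counting used strand is not given in the sources used here. An estimate of this kind divides reads shared by transcripts or near-identical genes between them.

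Values were summed per gene and rounded. All genes of a table were fitted with edgeR 4.0.16 in R 4.3.3 (filterByExpr filter, TMM factors, glmQLFit and glmQLFTest), the tables separately, and p-values were adjusted by the Benjamini-Hochberg method with a threshold of 0.05. The contrast between knockout and siRNA effects and that of scramble siRNA against Hep3B came from a fit of all 8 libraries over the genes listed in both tables. The design assumed counts, and the same test was kept for rounded expected counts. CPM, counts relative to the TMM-scaled library size, were used for levels, and log2 CPM had a prior count of 2. Totals of 16266282 to 25353113 per library make counting error small beside the spread between libraries. Transcript lengths and GC content came from GENCODE transcripts, matched by accession for 15038 of 16169 genes and by symbol for 850. The steps were tested on simulated data.

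The members and gene lists were chosen with earlier results of these data known. All members are named, with SOX4 and STAT6 as checks. From each list were named up to 4 genes with an adjusted p below 0.05 in the knockout comparison, smallest p first, or otherwise the 2 with the largest mean count, and EIF2AK4 was added after its value was seen. The 5 genes most like ATF4, and the 5 most like the mean of the other members, were named by Pearson's r. Tried as alternatives were DESeq2 1.42.0, scaling by upper quartiles or by median ratios, dropping the filter or asking for 10 counts in all libraries, the legacy = FALSE and robust = TRUE forms of glmQLFit, a fit of all 8 libraries, the library number as a block, offsets for GC content and length (mgcv 1.9.3) with and without the block, and leaving out each library.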

Additional observations from a re-analysis of the deposited data

How the results depend on the processing

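In the knockout comparison all 10 members stayed below 0 under each of 15 alternatives, and 4 to 7 were called except where given here. In the knockout comparison 0 of 10 members were called with the replicate block and the offsets for GC content and length together (adjusted p 0.0548 to 0.169, 60 genes in all), and the number called ranged from 0 to 6 on leaving out 1 library. The library number is only a number in the labels. Number differences correlated at -0.08 between the conditions of the knockout table and at 0.93 in the siRNA table, where the libraries also differed by GC content (Spearman's rho of the ratio of library 2 to library 1 with GC -0.78 and -0.85). The replicate block alone called 4 members in the knockout comparison and 0 with STAT6 siRNA (62 genes in all). Whole-table calls in the knockout comparison were 849, with 2160 by DESeq2, 518 at 10 counts in every library, 2298 and 1322 without Hep3B replicates 1 and 2, and 438 in 1 fit of all 8 libraries. Among the gene lists in that comparison, 4 amino acid targets, 3 secreted targets and 1 gene of the ATF6 and XBP1 arms were called in 1 fit of all 8 libraries, and with the block and offsets 0 genes of any list but 1 marker of other cell types. Without Hep3B replicates 1 and 2 the amino acid targets called were 12 and 12, the secreted 7 and 8, and the ATF6 and XBP1 genes 4 and 5. The cause of these changes was not tested.

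With STAT6 siRNA the offsets turned the log2 fold changes of ATF5 (-0.054), TRIB3 (-0.19), CHAC1 (-0.028), DDIT4 (-0.0209), CEBPB (-0.16) and NUPR1 (-0.15) below 0. With the replicate block and the offsets they were -0.031, -0.18, -0.0228, -0.0319, -0.16 and -0.17 in the same order, and 1 member, ATF3, was called (log2 fold change -0.43, adjusted p = 0.0369 in edgeR's quasi-likelihood test, 352 genes in all), as were 4 amino acid and one-carbon targets. On leaving out 1 library the values ran from -0.43 to 0.14 for DDIT3, -1.08 to 0.13 for ATF3, -0.23 to 0.29 for TRIB3, -0.12 to 0.54 for CHAC1, -0.38 to 0.77 for DDIT4, -0.12 to 0.34 for CEBPB and -0.13 to 0.31 for NUPR1.

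For the difference between the perturbations all 10 members stayed below 0 under each of 18 alternatives. In all, 167 of 14313 genes were called by DESeq2, 97 with the replicate block and 34 with the block and offsets. There 2 members were called by DESeq2, 2 with the replicate block (CHAC1 and SESN2), 1 with the block and offsets (SESN2), and 0 to 1 on leaving out 1 library (DDIT4 without scramble siRNA replicate 1). In scramble siRNA against Hep3B 2 members were called by DESeq2, 4 with the replicate block (DDIT3, ATF3, SESN2 and NUPR1), 1 with the offsets (DDIT3), 3 with both (DDIT3, ATF3 and SESN2) and 0 to 1 on leaving out 1 library (ATF3 without scramble siRNA replicate 2, DDIT3 without either STAT6 siRNA library). ATF5 turned below 0 with upper-quartile factors (-0.00425), at 10 counts in every library (-0.055), with the offsets (-0.584) and with block and offsets (-0.61), as did NUPR1 with the last (-0.025). In all, DESeq2 called 725 of 14313 genes there, the block 4592, the offsets 3 and the block with offsets 751. The genes called with the block held 13 of the ATF6 and XBP1 arms, 8 bZIP factors, 8 secreted targets and 5 hypoxia genes. Leaving out 1 library gave -0.22 to 0.12 for ATF4, -0.19 to 0.23 for ATF5 and -0.41 to 0.094 for CHAC1. Over all 18 alternatives the values ran from -0.53 to 0.12 for ATF4 (16 below 0) and from -0.93 to 0.094 for CHAC1 (17 below 0). The median of the 9 targets was -1.21 with the offsets and -1.26 with block and offsets. Where 1 library was left in an arm, it was taken to vary like the others.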
